A study of Mus musculus with 4 samples.

Results

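The small leucine-rich proteoglycans (SLRPs) are a family of secreted matrix proteins, followed here through 9 genes: Dcn, Bgn, Ogn, Lum, Fmod, Aspn, Omd, Prelp and Podn. The members were taken by gene symbol from the array annotation, using probe sets annotated to only 1 gene, which gave 20 probe sets for the 9 genes among 18193 genes represented in all. The study has 4 cultures, all of fetal liver progenitors of p53-/- mice, so the control lacks p53 as well. Of these, 3 cultures had been transformed, and they are labelled H-RasV12 (a constitutively active small GTPase of the RAS family), myr-Akt (the kinase AKT held at the membrane by a myristoyl group) and c-Myc (a transcription factor that drives growth), while the fourth is labelled non-transformed. All were grown in a DMEM:F12 medium with 10% fetal bovine serum, dexamethasone, nicotinic acid, 2-mercaptoethanol, an ITS supplement, 20 ng/ml EGF and 50 ng/ml HGF. The labels do not say how many fetuses, clones or infections stand behind a culture. Each condition is 1 culture on 1 array, so no spread between replicates exists, no test was possible, and every difference given is between 2 arrays, a number that limits its precision.

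SLRPs have a small protein core built of repeated leucine-rich units, which bends into a curved surface that binds collagen fibrils and growth factors. Class I holds decorin (Dcn) and biglycan (Bgn), which carry chondroitin or dermatan sulfate chains, and asporin (Aspn), which has a stretch of aspartates in place of such chains. Class II holds lumican (Lum), fibromodulin (Fmod), osteomodulin (Omd) and PRELP, of which several carry keratan sulfate or sulfated tyrosines. Osteoglycin (Ogn) belongs to class III and podocan (Podn) to class V. In the liver, decorin and biglycan are known mainly as products of stellate cells and fibroblasts rather than of hepatocytes, and decorin is known as a binder of TGF-beta and of the EGF and HGF receptors.

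The values are MAS5 signals, the linear brightness summary of an Affymetrix probe set, and a signal under 100.001 (20% of the arrays' common trimmed mean) was treated as a floor below which values have no order. Above it lay 9927 genes on the H-RasV12 array, 9512 on the myr-Akt array, 9492 on the c-Myc array and 10216 on the non-transformed array. For beta-actin, the ratio of 5′ to 3′ signal, which falls with RNA degradation, ran from 0.846 to 0.907. The same ratio for Gapdh ran from 1.24 to 1.29. The Myc probe set read 421 on the array labelled c-Myc and 2285 on the non-transformed array, with 1747 and 640 on the H-RasV12 and myr-Akt arrays. It was thus lowest on the c-Myc array and did not mark that culture. The brightest of 4 Akt1 probe sets read 2834 on the array labelled myr-Akt, against 1870 on the non-transformed array, with 2760 and 2991 on the H-RasV12 and c-Myc arrays. No source used here says if these probe sets can bind the introduced genes, and Hras was not looked at. Every direction given for a culture thus rests on its label. Of 11 hepatocyte and hepatoblast markers with a probe set, 7 were above the floor on the H-RasV12 array. On myr-Akt 1 was, on c-Myc 2 and on non-transformed 3. Apoa1 read 4300, 4.9, 1.5 and 638 on the H-RasV12, myr-Akt, c-Myc and non-transformed arrays. Afp and Ttr read 568 and 476 on the H-RasV12 array and were under the floor on the others. Dlk1 was brightest on the c-Myc array, at 1898. Albumin (Alb) read 168 on the H-RasV12 array and 19.8, 26.6 and 3.7 on the myr-Akt, c-Myc and non-transformed arrays, the last 3 under the floor. On any array at most 1 of 8 endothelial and 2 of 7 blood markers were above the floor, with Pecam1 and Ptprc at 5.1 or less throughout.

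Of the 9 SLRP genes, 3 (Dcn, Bgn and Ogn) were above the floor on all 4 arrays, beside 8965 of all 18193 genes. Each of the 3 had its highest signal on the non-transformed array, but they differed in where they were low. Dcn was 60.8 times lower in the H-RasV12 culture and near its control level in the myr-Akt and c-Myc cultures. Bgn was lowest in the myr-Akt culture, by 9.02 times. Ogn was lower in all 3 transformed cultures, by 15.1 times with H-RasV12, 2.62 times with myr-Akt and 2.79 times with c-Myc.

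**Figure D1:**
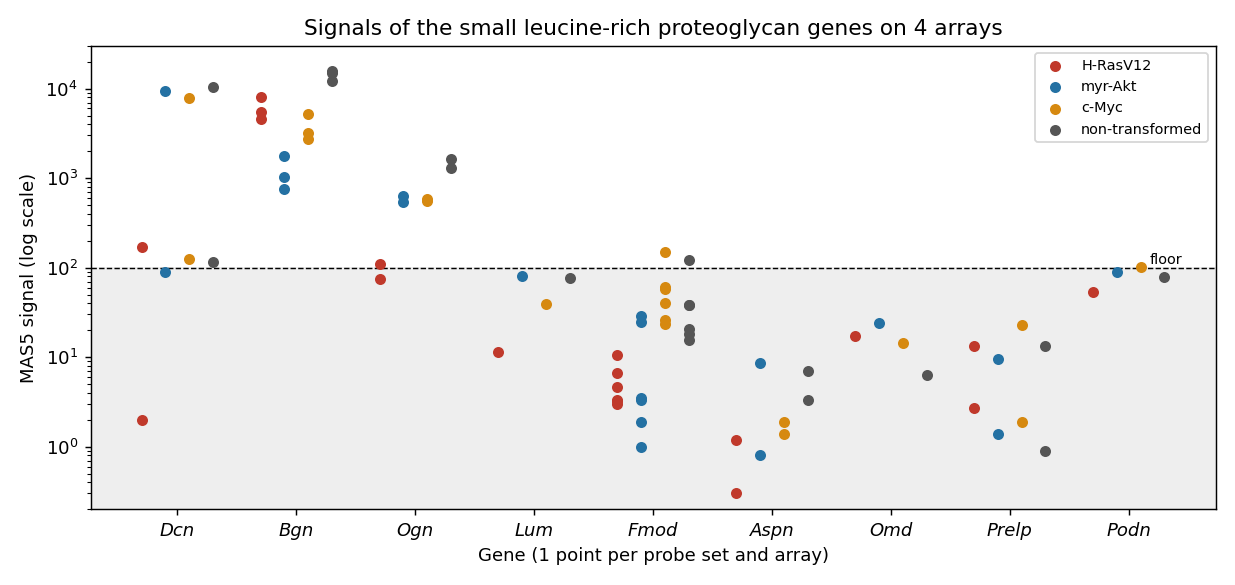
MAS5 signal (log scale) of each of the 20 probe sets of the 9 SLRP genes, 1 point per probe set and array, coloured by culture. The dashed line is the floor of 100.001 and the grey area lies below it. The brightest probe sets of Dcn, Bgn and Ogn stand above the floor on all arrays, whereas every probe set of Lum, Aspn, Omd and Prelp lies within the grey area.

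Dcn encodes decorin, which binds collagen fibrils and limits their width. Its main probe set read 172 on the H-RasV12 array, 9524 on the myr-Akt array, 7765 on the c-Myc array and 10469 on the non-transformed array. Thus 3 of the arrays were bright and the H-RasV12 array alone was dim, though still above the floor. The log2 difference from non-transformed was -5.93 for H-RasV12, -0.14 for myr-Akt and -0.43 for c-Myc. No gene among the 10679 above the floor on at least 1 array was further down in the H-RasV12 comparison. That place was held under 6 of the 7 other processing settings tried, and with the mean over probe sets in its stead 20 genes were lower still. A second Dcn probe set was dim throughout, reading 2.0 on the H-RasV12 array, 89.7 on myr-Akt, 125 on c-Myc and 117 on non-transformed. It was thus above the floor on the c-Myc and non-transformed arrays only, and it gives no more than at least 1.17 times lower for H-RasV12. Averaged with the main probe set, it brings the H-RasV12 difference to -3.07.

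Bgn encodes biglycan, the nearest relative of decorin, which also binds collagen and, when released, can act on Toll-like receptors. Its brightest probe set read 8032 on the H-RasV12 array, 1748 on the myr-Akt array, 5150 on the c-Myc array and 15761 on the non-transformed array. The order of the transformed cultures was thus the reverse of that for Dcn at its ends, with H-RasV12 nearest to the control and myr-Akt farthest from it. The log2 differences from non-transformed were -0.97 for H-RasV12, -3.17 for myr-Akt and -1.61 for c-Myc. Bgn has 2 more probe sets, which ranged from 4531 to 5490 on the H-RasV12 array, from 764 to 1042 on myr-Akt, from 2753 to 3226 on c-Myc and from 12070 to 14824 on non-transformed. All 3 probe sets gave the same order of the 4 arrays. They differed in the size of the H-RasV12 difference, which was 1.96 times lower by the brightest and 2.70 and 2.66 times lower by the others, on either side of the 2-fold threshold used here.

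Ogn encodes osteoglycin, also called mimecan, a class III member with a shorter run of leucine-rich repeats. Its brighter probe set read 109 on the H-RasV12 array, 626 on the myr-Akt array, 589 on the c-Myc array and 1641 on the non-transformed array. The H-RasV12 signal lay just above the floor, and the myr-Akt and c-Myc signals were close to each other at an intermediate level. The log2 differences were -3.92, -1.39 and -1.48 for H-RasV12, myr-Akt and c-Myc. The other Ogn probe set read 75.5, 545, 551 and 1285 on the H-RasV12, myr-Akt, c-Myc and non-transformed arrays, so the first of these was under the floor and the fold at least 12.8. The 2 probe sets gave 2.36 and 2.62 times lower for myr-Akt, and 2.33 and 2.79 times lower for c-Myc.

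**Figure D2:**
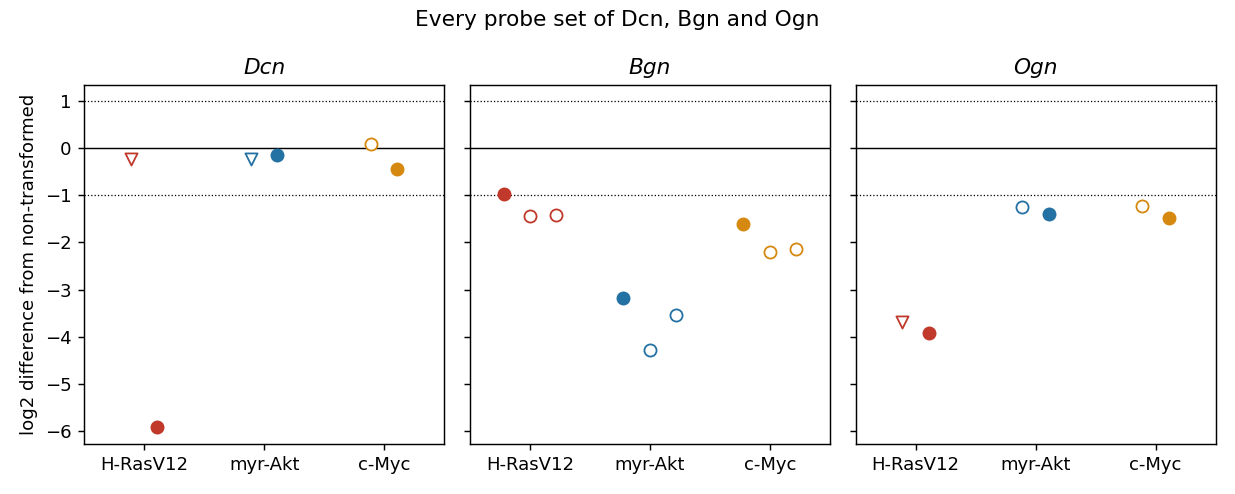
Log2 difference from the non-transformed array for each probe set of Dcn, Bgn and Ogn on the H-RasV12, myr-Akt and c-Myc arrays. Filled points are the brightest probe set of the gene, open points the others, triangles mark a culture at the floor, and dotted lines mark 2-fold. For Bgn the probe sets run from -0.97 to -1.43 for H-RasV12 and from -3.17 to -4.28 for myr-Akt, and the dim second probe set of Dcn, at the floor for H-RasV12, stands at its bound of -0.22.

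The class II genes and the remaining members were at or close to background. Fmod, whose product fibromodulin also binds type I collagen, has 6 probe sets, and only 1 of them passed the floor. That probe set read 3.0 on the H-RasV12 array, 29.0 on myr-Akt, 148 on c-Myc and 122 on non-transformed. It was thus above the floor on the c-Myc and non-transformed arrays only, and at least 1.21 times lower with H-RasV12 and with myr-Akt. The identifier of this probe set ends in _x_at, which marks a design that can bind other transcripts too. The other 5 Fmod probe sets stayed at or below 60.9 on every array. Podn, which encodes podocan, read 53.8, 88.6, 102.5 and 78.9 on the H-RasV12, myr-Akt, c-Myc and non-transformed arrays, barely passing the floor on 1 of them. Lum, a keratan sulfate proteoglycan best known from the cornea, read 11.5, 79.7, 39.5 and 75.8 in the same order, all under the floor. Aspn stayed at or below 8.5, Omd at or below 24.3 and Prelp at or below 22.9. At these signals no difference between arrays was detectable for Lum, Aspn, Omd and Prelp, which does not show that their transcripts are absent.

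The family has further members, and 7 of 9 others looked for (Epyc, Kera, Optc, Nyx, Chad, Chadl and Ecm2) had a probe set of their own. Of these, Epyc alone passed the floor, on 1 array. It encodes epiphycan, a class III proteoglycan of growth-plate cartilage, and read 13.6 on the H-RasV12 array, 432 on myr-Akt, 42.2 on c-Myc and 42.7 on non-transformed. That is at least 4.32 times higher with myr-Akt than in the control, by its only probe set. The other 6 stayed at or below 53.5 on all arrays. In all, 6 of 16 SLRP genes with a probe set passed the floor somewhere, 5 of them among the 9 members followed here. Over all genes 10679 of 18193 did.

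Counted at a 2-fold threshold, 2 members were lower and 0 higher in each comparison with the non-transformed culture, but not the same ones each time. With H-RasV12 they were Dcn and Ogn, where 6.27% of all measured genes were at least 2-fold lower and 2.08% at least 2-fold higher. With myr-Akt they were Bgn and Ogn, against a background of 12.7% lower and 4.90% higher. With c-Myc they were again Bgn and Ogn, against 11.3% lower and 4.42% higher. The 4 members at the floor on all arrays could not be counted in any comparison. Fmod and Podn could not reach 2-fold with this floor either, their widest ranges over the arrays being 1.48 and 1.02 times. These counts thus describe Dcn, Bgn and Ogn. They also depend on the setting. For instance, 3 members were lower with H-RasV12 with the floor at 10% of the trimmed mean, a pseudocount or the mean over probe sets. The 3 comparisons share the non-transformed array, so a deviation of that array would enter all of them.

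Scaled to a common median, the median gene shifted to 0.25 for myr-Akt and 0.31 for c-Myc, and the counts over all genes turned from 1353 lower and 523 higher to 940 lower and 1297 higher for myr-Akt. For c-Myc they turned from 1211 lower and 472 higher to 813 lower and 1399 higher. The members moved up with the rest. Bgn was at -2.86 for myr-Akt and -1.26 for c-Myc on that scale, and Ogn at -1.08 and -1.13, close to the 2-fold threshold, so 2 members were still counted as lower in each. The small Dcn difference for myr-Akt changed sign, to 0.18, and was still below the median gene.

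Among the patterns over the 3 comparisons, Dcn was lower with H-RasV12 and within 2-fold with myr-Akt and c-Myc, which 230 of 10679 genes (2.15%) showed. Bgn was within 2-fold with H-RasV12 and lower with both others, as were 624 genes (5.84%). That pattern of Bgn is that of its brightest probe set only, since the others were 2.70 and 2.66 times lower with H-RasV12, and the mean over probe sets (-1.27) places it with Ogn. Ogn was lower in all 3, as were 288 genes (2.70%). By size, 8 genes were further down than Ogn in the H-RasV12 comparison (7 to 26 under the other settings). With myr-Akt 88 were further down than Bgn (22 to 136) and 826 further down than Ogn (579 to 1087). With c-Myc 561 were further down than Bgn (217 to 766) and 656 further down than Ogn (454 to 889).

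**Figure D3:**
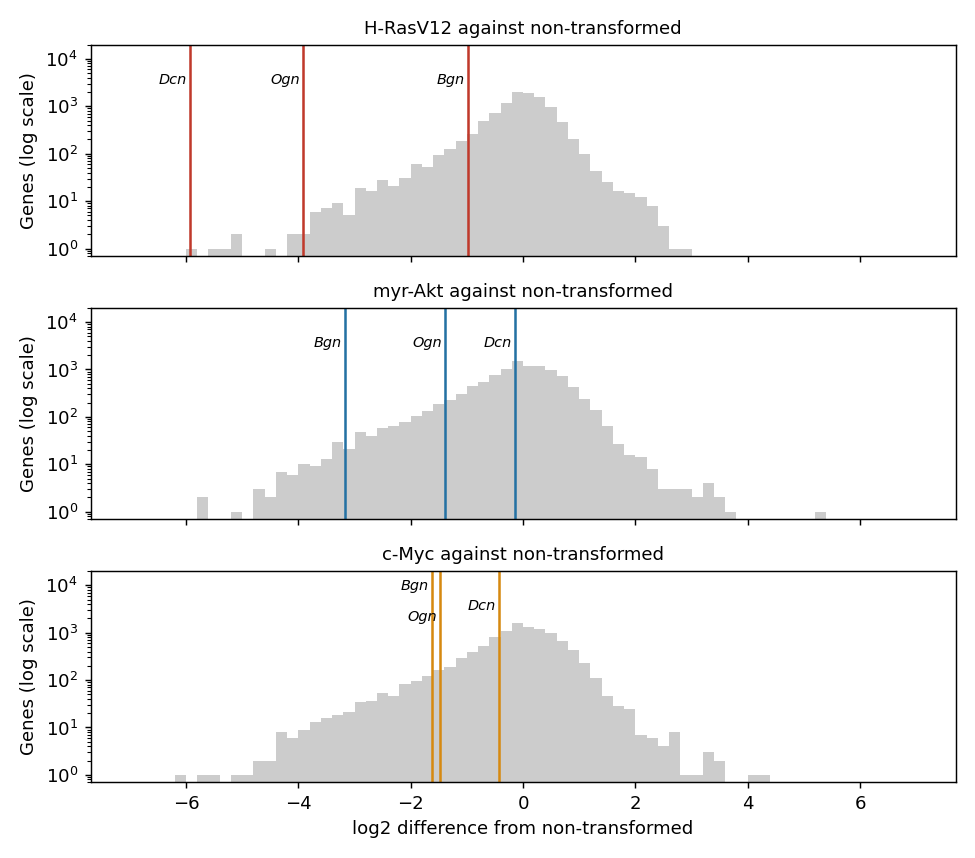
Distribution of the log2 difference from non-transformed over 10679 genes above the floor on at least 1 array (number of genes on a log scale), for H-RasV12, myr-Akt and c-Myc from top to bottom, with vertical lines at Dcn, Bgn and Ogn. Dcn is at the far left for H-RasV12 (-5.93) and within the bulk for myr-Akt (-0.14) and c-Myc (-0.43), while Bgn is farthest left for myr-Akt (-3.17).

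Set directly against each other, the transformed cultures differed in the same genes. Dcn was 55.3 times lower with H-RasV12 than with myr-Akt and 45.1 times lower than with c-Myc. In both of these comparisons no measured gene was further down, although 29 and 22 genes were with the mean over probe sets. Ogn was 5.75 and 5.41 times lower with H-RasV12 than with myr-Akt and c-Myc. Bgn went the other way, being 4.60 times higher with H-RasV12 than with myr-Akt and 1.56 times higher than with c-Myc. So in H-RasV12 against myr-Akt 2 members were lower and 1 higher, where 4.38% of genes were lower and 9.35% higher. In H-RasV12 against c-Myc 2 members were lower and 0 higher, with backgrounds of 5.11% and 8.76%. Between c-Myc and myr-Akt, 0 members were lower and 1 higher, with backgrounds of 1.53% and 2.01%. With a common median the counts over all genes were 740 lower and 798 higher for H-RasV12 against myr-Akt, in place of 468 and 999, and 914 lower and 726 higher for H-RasV12 against c-Myc, in place of 546 and 936. The member higher with c-Myc than with myr-Akt was Bgn, at 5150 with c-Myc and 1748 with myr-Akt, which is 2.95 times higher and was exceeded by 56 genes. Dcn and Ogn differed little between c-Myc and myr-Akt, with log2 differences of -0.29 and -0.09.

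Most SLRP genes lie in tandem clusters, and the RefSeq gene order of mouse assembly GRCm38.p6 was used to ask how their neighbours behaved. Dcn heads a cluster with Lum, Kera and Epyc on chromosome 10. Of the 3 nearest measured genes on each side of this cluster (Nudt4, Eea1 and Btg1, then Atp2b1, Poc1b and Galnt4), none differed by 2-fold on any transformed array, and the H-RasV12 differences ran from -0.19 to 0.44. Within the cluster, Dcn and Epyc did not share a pattern, since Dcn was low with H-RasV12 alone and Epyc high with myr-Akt alone. Ogn closes a cluster with Ecm2, Aspn and Omd on chromosome 13, of which only Ogn was above the floor. Of its neighbours (Bicd2, Ippk and Cenpp, then Nol8, Iars and Fbxw17), Nol8 was 1.03 higher on the log2 scale with myr-Akt, the direction opposite to Ogn, and the others stayed within 2-fold. Around Fmod, Prelp and Optc on chromosome 1, 5 of the 6 neighbours stayed within 2-fold. The sixth was Btg2, an antiproliferative gene, at 804 with H-RasV12, 3114 with myr-Akt, 2831 with c-Myc and 4196 in non-transformed cells, so it was 2.38 lower on the log2 scale with H-RasV12. Of the genes next to Bgn on chromosome X, F8a, Zfp275, Haus7, Slc6a8 and Bcap31 stayed within 2-fold. Dusp9, a MAP kinase phosphatase gene on the same side as the last 2, read 195 with H-RasV12, 38.9 with myr-Akt, 127 with c-Myc and 94.2 in non-transformed cells. The last of these is under the floor, so its H-RasV12 difference is at least 0.97 on the log2 scale and cannot be placed against the threshold. The genes next to Podn on chromosome 4 (Lrp8, Czib and Cpt2, then Scp2, Echdc2 and Zyg11b) stayed within 2-fold.

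The promoter windows of Bgn and Ogn are shown because these genes were lower with both myr-Akt and c-Myc and differed in size with H-RasV12. RefSeq windows of GRCm38.p6, from 250 bases before to 50 bases after the gene start, were held for 7 of the 9 members. They were searched on both strands for the core motifs of the TATA box, the GC box, AP-1, the E-box that MYC binds, TEAD factors and RUNX factors, each spelled out with its result after the sequences. Capitals mark every match, and both sequences are on the plus strand, written 5′ to 3′.
Bgn, chrX:73483351-73483650: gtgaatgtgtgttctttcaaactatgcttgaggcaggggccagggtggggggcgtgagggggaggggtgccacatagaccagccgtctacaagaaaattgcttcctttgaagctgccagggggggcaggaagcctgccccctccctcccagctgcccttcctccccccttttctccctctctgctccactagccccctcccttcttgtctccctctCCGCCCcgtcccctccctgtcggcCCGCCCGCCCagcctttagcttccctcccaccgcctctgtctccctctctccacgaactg
Ogn, chr13:49607765-49608064: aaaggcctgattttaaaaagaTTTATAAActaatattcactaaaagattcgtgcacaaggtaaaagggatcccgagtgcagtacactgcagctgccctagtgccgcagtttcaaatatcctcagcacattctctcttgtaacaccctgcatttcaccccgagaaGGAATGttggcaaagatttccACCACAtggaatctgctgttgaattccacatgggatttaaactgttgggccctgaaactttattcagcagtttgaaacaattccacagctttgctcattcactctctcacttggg

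The windows differed in composition, with 63.7% G and C for Bgn and 42.3% for Ogn, against a median of 52.7% over 32851 windows of the same length. Bgn held the GC box, whose letters are GGGCGG, in 3 places on the minus strand, starting at bases -34, -10 and -6 from the gene start, the last 2 of which overlap. That motif was present in 35.7% of all windows. Ogn held the TATA box letters TATAAA at -227 on the plus strand, overlapping a match on the minus strand at -229, and 13.6% of windows held that motif. It also held the TEAD motif GGAATG at -86 on the plus strand, which 14.7% of windows held. A RUNX motif, searched as TGTGGT and present in 16.8% of windows, lay at -65 on the minus strand of Ogn. Neither window held the AP-1 motif TGANTCA, which was found in 7.81% of windows. Neither held the E-box CACGTG, which was found in 7.15%. A match of letters describes the sequence and does not show that a factor binds there.

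Genes whose products work with SLRPs were followed as lists. Their counts stand beside the shares of all measured genes. At least 2-fold lower were 6.27% with H-RasV12, 12.7% with myr-Akt and 11.3% with c-Myc, and at least 2-fold higher 2.08%, 4.90% and 4.42%. In bulk RNA of a culture, fewer cells of a type and less RNA per cell cannot be told apart, which applies to every list and to the members alike. Of 13 measured collagen and matrix genes, 6 were at least 2-fold lower with H-RasV12, and 4 with myr-Akt and with c-Myc, while 1 was higher in each. With a common median 3 were higher with myr-Akt. The medians were -0.92, -0.59 and -0.47 on the log2 scale, against medians of 0.00, -0.02 and 0.00 over all genes. With H-RasV12, the type VI collagen genes Col6a2 and Col6a1, whose filaments bind decorin and biglycan, were 8.33 and 6.44 times lower and Col3a1, a fibrillar collagen, 3.99 times. Col6a2 read 268 on the H-RasV12 array, 5900 on myr-Akt, 1606 on c-Myc and 2231 on non-transformed, so it was low on the same array as Dcn. With myr-Akt it was 2.64 times higher instead. Col1a1, the main chain of type I collagen, read 3536.5 on the H-RasV12 array, 2598 on myr-Akt, 2120 on c-Myc and 12325 on non-transformed, and was 3.49, 4.74 and 5.81 times lower with H-RasV12, myr-Akt and c-Myc. Col1a2 was 7.69 times lower with c-Myc, and Col11a1 6.46 and 3.67 times with myr-Akt and c-Myc.

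Enzymes that build the glycosaminoglycan chains of SLRPs were next. The shares over all genes were 6.27%, 12.7% and 11.3% lower and 2.08%, 4.90% and 4.42% higher with H-RasV12, myr-Akt and c-Myc. Of 22 measured genes of linker, chondroitin and dermatan sulfate synthesis, 3 were at least 2-fold lower with H-RasV12, 6 with myr-Akt and 8 with c-Myc, and 0 were higher in any, with medians of -0.17, -0.73 and -0.68. The c-Myc count was 5 with the higher floor, 4 with the mean over probe sets and 5 with a common median. Chst11, a chondroitin 4-sulfotransferase, read 795 on the H-RasV12 array, 304 on myr-Akt, 122 on c-Myc and 1444 on non-transformed, and was 4.74 and 11.9 times lower with myr-Akt and c-Myc. Papss2, which makes the sulfate donor PAPS, was 2.53 times lower with H-RasV12, 6.17 times with myr-Akt and at least 7.89 times with c-Myc. Dse, the epimerase that turns chondroitin into dermatan sulfate, was 2.42 times lower with H-RasV12. Of 7 keratan sulfate and tyrosine sulfation genes, 1 was lower and 1 higher with H-RasV12, 2 lower with myr-Akt and 1 lower with c-Myc. Chst1, a keratan sulfate sulfotransferase, was 2.51 times higher with H-RasV12 and at least 3.89 times lower with myr-Akt and with c-Myc.

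Proteases known to cut SLRPs or their precursors formed another list. Among all measured genes 6.27%, 12.7% and 11.3% were lower and 2.08%, 4.90% and 4.42% higher with H-RasV12, myr-Akt and c-Myc. Of 8 measured, 5 were at least 2-fold lower with H-RasV12, 6 with myr-Akt and 6 with c-Myc, and 0 were higher, with medians of -1.16, -1.58 and -1.22. Scaled to a common median, the c-Myc count was 3. Mmp2, a gelatinase, read 2406 on the H-RasV12 array, 359 on myr-Akt, 546 on c-Myc and 5254 on non-transformed, which is 14.6 and 9.62 times lower with myr-Akt and c-Myc. Bmp1, the proteinase that removes the propeptides of biglycan and of procollagens, was 8.79 and 7.43 times lower with myr-Akt and c-Myc but read 2792 with H-RasV12 and 2890 in the control. Adamts5, an aggrecanase, was 10.9 times lower with H-RasV12, 4.53 times with myr-Akt and 2.37 times with c-Myc. Of 13 measured genes for growth factors and receptors that SLRPs bind or modulate, 2, 7 and 4 were lower with H-RasV12, myr-Akt and c-Myc, and 0 higher. Tgfb1, a ligand sequestered by decorin and biglycan, read 1798 on the H-RasV12 array, 50.8 on myr-Akt, 126 on c-Myc and 1120 on non-transformed. It was at least 11.2 times lower with myr-Akt and 8.86 times lower with c-Myc. Tgfb2 was 3.22 times lower with H-RasV12, and Lrp1, an endocytic receptor for decorin, was 5.49 and 7.19 times lower with myr-Akt and c-Myc.

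**Figure D4:**
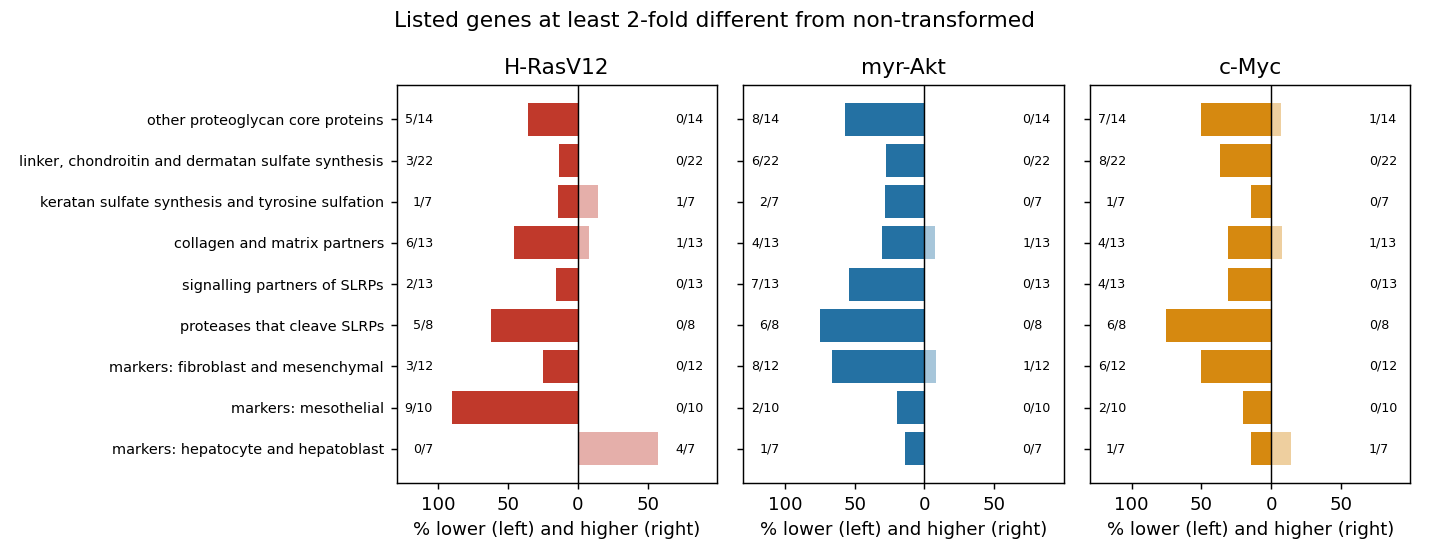
Share of the measured genes of each list drawn that were at least 2-fold lower (left, solid) or higher (right, pale) than in non-transformed cells, for H-RasV12, myr-Akt and c-Myc, with the counts beside the bars. The lists of other SLRP genes and of stellate, biliary, endothelial, blood and cartilage markers are not drawn. Mesothelial markers were lower in 9 of 10 genes with H-RasV12 and in 2 of 10 with each other oncogene, and fibroblast and mesenchymal markers in 3, 8 and 6 of 12. The shares over all genes, not drawn, were 6.27%, 12.7% and 11.3% lower and 2.08%, 4.90% and 4.42% higher.

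Markers of mesothelial, mesenchymal and stellate cells differed between the cultures as well. Their counts are set against 6.27%, 12.7% and 11.3% of all genes lower with H-RasV12, myr-Akt and c-Myc. The shares higher were 2.08%, 4.90% and 4.42%. All 10 mesothelial markers were above the floor in the non-transformed culture. With H-RasV12, 9 of them were at least 2-fold lower and 0 higher, and their summed signal was 15821, against 52005 with myr-Akt, 52963 with c-Myc and 62522 in non-transformed cells. Lrrn4 was at least 21.2 times lower with H-RasV12, Gpm6a 16.1 times, Bnc1 12.2 times and Upk3b 11.7 times. In the myr-Akt and c-Myc cultures 2 of 10 were lower, Msln by 32.9 and 22.5 times and Muc16 by 4.04 and 4.38 times. Dcn and most of these markers were thus low on the same array. Ogn was also low there, by 15.1 times, but was lower with myr-Akt and c-Myc too. The probe sets of Bgn were 1.96, 2.70 and 2.66 times lower on that array. Of 12 measured fibroblast and mesenchymal markers, 3 were lower with H-RasV12, 8 with myr-Akt and 6 with c-Myc, and 0, 1 and 0 were higher, with medians of -0.17, -2.11 and -1.13. Their summed signal was 57688 with H-RasV12, 42715 with myr-Akt, 44873 with c-Myc and 84949 in the control, most of it from Sparc and Vim, which were singled out after their values were seen. Of 7 stellate and pericyte markers, 2, 4 and 4 were lower and 0 higher, with medians of -0.47, -2.29 and -2.64. Their summed signal was 30551, 21302, 27344 and 40038 on the H-RasV12, myr-Akt, c-Myc and non-transformed arrays. Most of it came from Acta2, smooth muscle actin, singled out after its values were seen, with 26471, 19539, 25390 and 33456 on the same arrays. Hepatocyte and hepatoblast markers summed to 6208, 384, 2084 and 1016 on the same arrays, with 0, 1 and 1 of 7 lower and 4, 0 and 1 higher for H-RasV12, myr-Akt and c-Myc. With the mean over probe sets 2 were higher with H-RasV12. Of 4 biliary markers 1, 2 and 1 were lower and 1, 0 and 0 higher, and of 4 cartilage, bone and tendon markers 1, 2 and 2 were lower and 1, 0 and 0 higher. The only endothelial marker measured, Flt1, was 2.33 times higher with H-RasV12, and neither of 2 measured blood markers differed by 2-fold. No marker gene of these lists read exactly 0 on any array. The part of a different mix of cells in the differences of Dcn, Bgn and Ogn was not tested.

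The genes most like each member were found by the Euclidean distance between their 3 log2 differences from non-transformed. The search started from 10212 other genes above the floor in the control, less those whose symbol marks a clone or a predicted gene. Nearest to Dcn were Saa3, an acute-phase protein (distance 1.49), Lrrn4 (1.53), Rspo1, a WNT enhancer (1.79), Upk3b (2.38) and the basement membrane gene Nid2 (2.40). None was close, since Dcn lay at the edge of the range with H-RasV12, and Lrrn4 and Upk3b also stand in the mesothelial list above. Lrrn4 and Rspo1 were under the floor on the H-RasV12 array, at 81.7 and 79.8, so their distances rest on bounds. Nearest to Bgn were Cyb561a3 (0.39), Hsd17b11 (0.43), the interleukin-1 receptor gene Il1r1 (0.45), Daam2 (0.46) and Arhgef25 (0.51). The probe sets of Bgn differed by more than that, from -3.17 to -4.28 with myr-Akt, so these distances hold for its brightest only. Nearest to Ogn were Igfbp2, which binds insulin-like growth factors (0.52), Gas6, a ligand of TAM receptors (0.54), Adamts5 (0.95), the chemokine gene Ccl7 (0.97) and Cadm4 (1.12). Cadm4 read 97.1 on the H-RasV12 array, under the floor, so its distance also rests on a bound. Igfbp2 read 625 on the H-RasV12 array, 4242 on myr-Akt, 3485 on c-Myc and 8260 on non-transformed, in the same order of arrays as Ogn except that myr-Akt and c-Myc were further apart. Nearest to Fmod, whose differences are small and bound by the floor, were Fndc4, Bche, Hlcs, Ndst2 and Mrpl33, at distances of 0.042 to 0.096. All profiles rest on the same 4 arrays and 1 control, so likeness over them is a description.

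**Figure D5:**
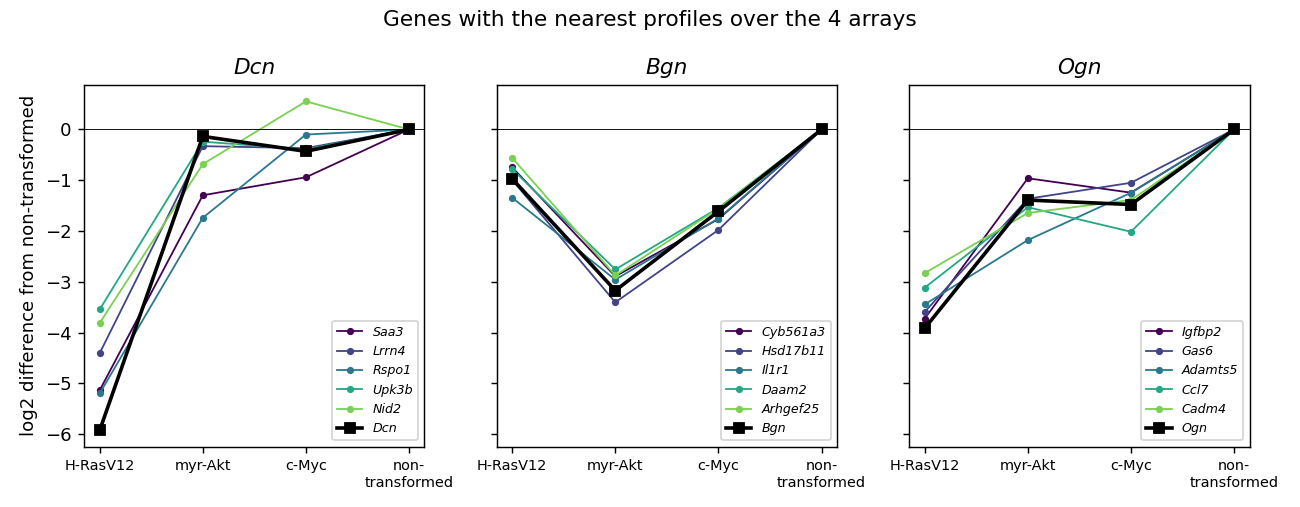
Log2 difference from non-transformed for Dcn, Bgn and Ogn (black squares) and the 5 genes nearest to each (coloured circles) on the H-RasV12, myr-Akt, c-Myc and non-transformed arrays. Lines only join the points of 1 gene. Genes whose symbol marks a clone or a predicted gene were left out of the search. The genes nearest to Bgn lie within 0.39 to 0.51 of its brightest probe set, whereas those nearest to Dcn lie 1.49 to 2.40 away.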

How the data were processed

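The 4 cultures were each hybridised to 1 single-colour Affymetrix mouse array, from 1 µg of total RNA per the labels' protocols. The signals deposited by the authors are linear intensities per probe set from MAS5, a program named by the submitters' processing notes. Its version and its detection calls are not stated in those notes. After trimming 2% at each end, every array's mean was 500.003.

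Signals were floored at 20% of that mean and taken to log2 (numpy 2.4.6, pandas 2.3.3, Python 3.11.15, figures with matplotlib 3.10.9). Of 45101 probe sets, 64 are controls, and of the others 34945 had 1 gene symbol, 932 several and 9160 none. Where a gene had several probe sets, the one brightest on average was used. Genes above the floor on at least 1 array, 10679 of 18193, were counted at 2-fold. With 1 side at the floor a fold is a bound ("at least"). The counting was tested on simulated data with large changes planted in bright genes only, which says nothing of signals near the floor.

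Members, lists and comparisons were chosen with earlier results of these data known. Named were all members, up to 4 genes per list and comparison with non-transformed cells (largest first), the 5 nearest profiles per member above the floor in the control, and 3 measured neighbours per side of a cluster. The motifs, the patterns counted and Alb, Pecam1 and Ptprc were chosen after values were seen. Alternatives covered the floor, a pseudocount, the probe set choice and the scaling. Of 9 further SLRP genes, Tsku and Podnl1 were not analysed here.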

Additional observations from a re-analysis of the deposited data

How the results depend on the processing

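Among recomputed counts of members past 2-fold, 83 were within 1.5 times of the reported count and 1 was not. The exception was the count of members higher with c-Myc than with myr-Akt, which was 2 with the floor at 10% of the trimmed mean, Fmod having joined Bgn. A margin of 1.5 times treats counts of 2 and 3 as alike. Members lower with H-RasV12 than in non-transformed cells were 3 in place of 2 with that floor, with a pseudocount and with the mean over probe sets. Among recomputed member differences, 371 kept their side of the 2-fold threshold and 7 passed it only under the alternative, and no difference past it changed sign. The 371 include those of Lum, Aspn, Omd, Prelp and Podn, whose signals under or near the floor left little room to pass the threshold. The 7 were Bgn for H-RasV12 against non-transformed with the mean over probe sets (-1.27), and 6 differences of Fmod with the lower floor or a pseudocount (for instance -1.28 for H-RasV12 and for myr-Akt against non-transformed with the lower floor). For H-RasV12 against non-transformed, Dcn ranged from -6.03 to -3.07 and Ogn from -4.01 to -3.04, and for myr-Akt against non-transformed Bgn ranged from -3.66 to -2.86. The smallest Dcn difference came from averaging its probe sets, 1 of which is near the floor. Among list counts, 582 were within 1.5 times and 48 were not. Of the 5 genes nearest to Dcn, Bgn or Ogn, under 4 were shared in 10 recomputations and 4 or more in 11. Over all genes, counts against non-transformed that differed by more than 1.5 times were, with a pseudocount, 136 higher for H-RasV12 (222 reported) and 298 higher for c-Myc (472 reported). With the mean over probe sets they were 436 lower for H-RasV12 (670 reported), 341 higher for myr-Akt (523 reported) and 293 higher for c-Myc. With a common median 1297 were higher for myr-Akt and 1399 for c-Myc, 740 lower for H-RasV12 against myr-Akt and 914 lower for H-RasV12 against c-Myc. For c-Myc against myr-Akt (163 lower and 215 higher reported), they were 106 lower and 140 higher with the floor at 40%, 133 higher with a pseudocount, and 102 lower and 129 higher with the mean over probe sets. Signal over background limits what can be said of Lum, Aspn, Omd, Prelp, Podn and Fmod. No paired analysis was possible because each condition has 1 array, and for the same reason no replicate could be left out.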

Other observations

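Proteoglycan core proteins of other families than the SLRPs were counted too. Of 14 measured, 5 were at least 2-fold lower with H-RasV12, 8 with myr-Akt and 7 with c-Myc, and 0, 0 and 1 were higher, with medians of -0.47, -1.14 and -1.01 on the log2 scale. Over all genes 6.27%, 12.7% and 11.3% were lower and 2.08%, 4.90% and 4.42% higher. With the mean over probe sets the counts lower were 3, 4 and 4, and with a common median 3 for H-RasV12 and 5 for myr-Akt. Gpc3, a membrane-anchored glypican of fetal liver, read 312 on the H-RasV12 array, 1890 on myr-Akt, 3904 on c-Myc and 3576 on non-transformed. Like Dcn, it was low with H-RasV12, by 11.5 times, and within 2-fold in the other cultures. Vcan, which encodes the large hyaluronan-binding proteoglycan versican, read 3906, 692, 319 and 2238 on the H-RasV12, myr-Akt, c-Myc and non-transformed arrays. It was 3.24 and 7.01 times lower with myr-Akt and c-Myc, and 1.75 times higher with H-RasV12. Bgn was also lower with myr-Akt and c-Myc, by 9.02 and 3.06 times, but 1.96 times lower with H-RasV12.

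Gpc4, a second glypican, was 3.73, 5.43 and 2.75 times lower with H-RasV12, myr-Akt and c-Myc. Sdc2, a syndecan, was 2.56, 3.28 and 3.23 times lower in the same cultures. Prg4, which encodes lubricin, read 27.7 on the H-RasV12 array, 281 on myr-Akt, 1118 on c-Myc and 183 on non-transformed, and its 6.12-fold higher signal with c-Myc was the only one of these core proteins at least 2-fold higher in any comparison with non-transformed cells.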
